A study of Mus musculus with 6 samples.

Results

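The uroplakin genes *Upk1a*, *Upk1b*, *Upk2*, *Upk3a* and *Upk3b* and 3 further genes of superficial urothelial cells, *Sprr1a*, *Psca* and *Snx31*, were followed in cultured mouse ureters. These 8 genes were chosen by symbol from a total of 56748 gene identifiers. A gene was treated as measured when it had at least 10 counts in at least 3 of the 6 libraries. This held for 7 of the 8 genes, and *Psca* was the exception. Ureters were dissected from E12.5 wildtype embryos of the outbred NMRI strain and cultured on transwell membranes for 18 h. The LiCl group received 15 mM LiCl, which inhibits GSK3B, the kinase that marks beta-catenin for degradation, and so activates canonical WNT signaling, and the control group received water. Each group had 3 samples for bulk RNA-Seq, and neither group carried an engineered allele. The number of ureters per sample and the origin of the samples from separate pools are not given in the sources used here, so that p-values measure only the spread between these samples.

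Uroplakins are membrane proteins of superficial (S) cells, the luminal layer of the urothelium. UPK1A and UPK1B are tetraspanins. UPK1A pairs with UPK2, and UPK1B pairs with UPK3A or UPK3B, and the pairs leave the endoplasmic reticulum and assemble into plaques of the apical membrane that contribute to the permeability barrier against urine. SPRR1A is a small proline-rich protein known from the cornified envelope of squamous epithelia, PSCA is a GPI-anchored surface protein of the LY6 family, and SNX31 is a sorting nexin that binds uroplakins on endosomes of S cells. At E12.5, the ureteric epithelium (UE) is a monolayer that has not yet stratified into basal (B), intermediate (I) and S cells, and *Upk3b* is also known from mesothelium.

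The total count per library lay between 28473436 and 31266945, and the ranges of both groups overlapped. The readout of WNT activation moved in the LiCl libraries. Of 12 tested WNT target genes, 10 were higher and 1 was lower at an adjusted p under 0.05 (edgeR), against 21.1% and 22.4% of all tested genes. This list was chosen with earlier results of these data known. *Axin2*, a negative feedback regulator of the pathway, rose from 71.8 to 136 CPM (counts scaled to a common library size). Its log2 fold change was 0.92 (edgeR adjusted p = 1.4e-06). Genes of skeletal muscle stood apart in single libraries. Their summed level was 39.3 to 43.7 CPM in the controls and 34.9, 83.9 and 131 CPM in LiCl replicates 2, 1 and 3. The fit without LiCl replicates 1 and 3 leaves 1 LiCl library, so that the spread comes from the controls alone and the remaining library is assumed to vary like them. In this fit, 6 of the 8 genes were called lower, against 3.2% of all genes tested in it. In a bulk sample, fewer cells of a type and less RNA per cell cannot be told apart.

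RefSeq sequence upstream of the transcription start was held for 4 of the 8 genes, *Upk1a*, *Upk3a*, *Upk3b* and *Sprr1a*. It is shown for the gene with the largest change, for 1 of the uroplakins that fell and for the uroplakin with the smallest change. Each run holds the 250 bases before the start, 5′ to 3′ on the strand of the gene, in assembly GRCm38.p6, at chr3:92485882-92486131 (minus strand) for *Sprr1a*, chr7:30612735-30612984 (minus strand) for *Upk1a* and chr5:136038246-136038495 (plus strand) for *Upk3b*. Capitals mark matches on either strand to any of 10 short strings.
Sprr1a: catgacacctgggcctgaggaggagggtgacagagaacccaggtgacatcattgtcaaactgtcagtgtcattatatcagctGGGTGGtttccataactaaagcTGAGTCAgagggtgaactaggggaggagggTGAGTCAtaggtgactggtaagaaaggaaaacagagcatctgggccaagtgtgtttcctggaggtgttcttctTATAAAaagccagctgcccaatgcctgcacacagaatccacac
Upk1a: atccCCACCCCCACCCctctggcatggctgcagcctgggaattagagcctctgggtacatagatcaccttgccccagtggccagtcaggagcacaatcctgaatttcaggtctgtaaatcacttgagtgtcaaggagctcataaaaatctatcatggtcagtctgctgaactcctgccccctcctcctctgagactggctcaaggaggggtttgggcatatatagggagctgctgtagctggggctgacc
Upk3b: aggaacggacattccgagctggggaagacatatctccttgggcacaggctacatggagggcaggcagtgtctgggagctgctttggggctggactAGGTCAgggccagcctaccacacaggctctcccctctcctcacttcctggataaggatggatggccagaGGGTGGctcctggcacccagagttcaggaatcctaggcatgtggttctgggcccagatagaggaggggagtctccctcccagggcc
Both strands were searched. The string TATAAA stands for the core promoter element of that name, TGANTCA for the factor AP-1, and both TGTTTAC and its variant TGTTTGC for the FOXA factors. TCF and LEF, the factors of canonical WNT signaling, were represented by CTTTGAT, the zinc finger GATA factors by AGATAA and nuclear receptors by AGGTCA. Grainyhead-like factors were represented by AACCNGTT, SP and KLF factors by CCGCCC and KLF factors alone by CCACCC. In *Sprr1a*, TATAAA lay 43 to 38 bases before the start, and TGAGTCA occurred 146 to 140 and 116 to 110 bases before it. The AP-1 string was held by 6.75% and TATAAA by 12.4% of 32851 windows of the same length in the reference, in which each of these strings was counted separately. *Upk1a* had CCACCC at 246 to 241 and 240 to 235 bases, a string held by 28.1% of windows. *Upk3b* had AGGTCA, held by 14.0% of windows, at 155 to 150 bases, and CCACCC on the opposite strand at 86 to 81 bases. In *Upk3a*, AGATAA lay on the opposite strand at 188 to 183 bases, and CCGCCC on that strand at 91 to 86 and 18 to 13 bases. These 2 strings were held by 9.99% and 32.7% of windows. The FOXA, TCF/LEF and grainyhead-like strings were not found in any of the 4 windows. In all windows, their shares were 3.17% and 4.30% for the FOXA strings, 3.21% for TCF/LEF and 1.79% for grainyhead-like. These matches describe letters only.

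LiCl treatment was accompanied by lower expression of the uroplakins and of *Sprr1a* and *Snx31*. All 7 measured genes passed the filter of the test, and in each of them every LiCl library was below every control library. Over all 18188 tested genes, 27.8% showed such a separation. A call required that the log2 fold change lay below -1 or above 1 and that the adjusted p was under 0.05 (edgeR's quasi-likelihood test with Benjamini-Hochberg adjustment over all tested genes). Of the 7 genes, 6 were called lower, against 4.59% of all tested genes, and 0 were called higher, against 2.74%. Without a minimum fold change, all 7 were lower, against 22.4% of tested genes that were lower and 21.1% that were higher. The median log2 fold change was -1.67 over the 7 genes and -0.01 over all tested genes.

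**Figure D1:**
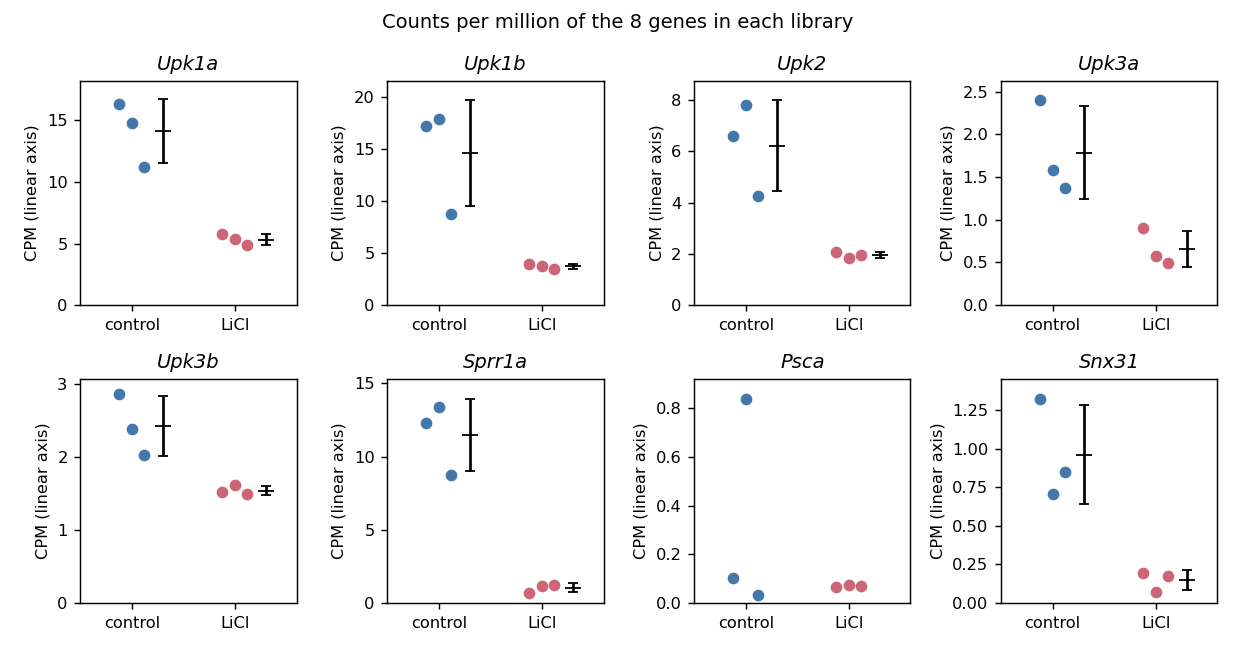
CPM of each of the 8 genes (linear axis from 0, own range per panel) in 3 control and 3 LiCl libraries, shown as points in the order of the replicate numbers, with mean and SD as black bars except for *Psca*, which was not tested. In 7 panels all LiCl points lie below all control points, while the *Psca* panel is set by 1 control library at 0.837 CPM.

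Among the tetraspanin uroplakins, *Upk1a* (ENSMUSG00000006313) had 16.3, 14.8 and 11.2 CPM in control replicates 1 to 3, and 5.76, 5.33 and 4.90 CPM in LiCl replicates 1 to 3. The groups did not overlap, and the gap between them was as wide as the spread of the controls. The mean fell from 14.1 ± 2.61 to 5.33 ± 0.432 CPM (SD, n = 3 each), a log2 fold change of -1.40 ± 0.15 (SE, edgeR adjusted p = 9.7e-05). *Upk1b* (ENSMUSG00000049436), the other tetraspanin, had 17.3, 17.8 and 8.75 CPM in the controls and 3.99, 3.79 and 3.51 CPM after LiCl. Control replicate 3 was low in this group, yet its level was above that of each LiCl library. *Upk1b* fell from 14.6 ± 5.09 to 3.77 ± 0.241 CPM with a log2 fold change of -1.95 ± 0.25 (adjusted p = 0.00031 with edgeR). The 95% interval of the fold change was -1.74 to -1.07 for *Upk1a* and -2.52 to -1.38 for *Upk1b*, on the log2 scale.

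*Upk2* (ENSMUSG00000041523), which encodes the single-pass partner of UPK1A, had 6.61, 7.80 and 4.28 CPM in the controls and 2.09, 1.83 and 1.95 CPM after LiCl. The LiCl libraries lay close together, and the controls spread more widely above them. The log2 fold change was -1.67 ± 0.23 (edgeR adjusted p = 0.0004), with the mean at 6.23 ± 1.79 CPM in the control and 1.96 ± 0.133 CPM after LiCl. *Upk3a* (ENSMUSG00000022435), which encodes the partner of UPK1B, was lower in abundance, with 69, 49 and 42 counts in control and 28, 16 and 14 counts in LiCl libraries. These are 2.40, 1.58 and 1.37 CPM against 0.901, 0.573 and 0.497 CPM. The highest value of each group was that of replicate 1. *Upk3a* fell with a log2 fold change of -1.42 ± 0.32 (edgeR adjusted p = 0.006, 95% interval -2.14 to -0.71).

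*Upk3b* (ENSMUSG00000042985), a relative of *Upk3a* whose product also pairs with UPK1B, changed least. It had 2.85, 2.38 and 2.02 CPM in the controls and 1.51, 1.61 and 1.49 CPM after LiCl. The groups did not overlap, with a small gap between control replicate 3 and LiCl replicate 2. The mean was 2.42 ± 0.416 CPM in the control and 1.54 ± 0.0644 CPM after LiCl, with a log2 fold change of -0.65 ± 0.20 and an edgeR adjusted p of 0.024, so that it was lower without reaching the fold change required for a call. Its adjusted p was 0.071 with DESeq2. With edgeR, it was 0.086 without control replicate 1, 0.061 without LiCl replicate 1 and 0.068 without LiCl replicate 3.

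*Sprr1a* (ENSMUSG00000050359) showed the largest change of the 7 genes. Its counts were 354, 416 and 267 in control and 22, 33 and 35 in LiCl libraries, which are 12.3, 13.4 and 8.71 CPM against 0.708, 1.18 and 1.24 CPM. Every control was several times above every LiCl library. The log2 fold change was -3.46 ± 0.24 (edgeR adjusted p = 7e-06), an 11.0-fold lower level with a 95% interval of 7.62 to 16.0. Among all tested genes, *Sprr1a* had the fourth lowest log2 fold change. Of 14 other genes of the SPRR family in the file, 10 had no count in any library, and 1, *Sprr2g*, had at least 10 counts in 3 libraries. Counts of *Sprr2g* were 53, 37 and 40 in control and 9, 1 and 1 in LiCl libraries, and was called lower with a log2 fold change of -3.48 (edgeR adjusted p = 0.00089). SPRR2 genes are near-identical copies, so that the division of reads among them is uncertain.

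The controls held 38, 22 and 26 counts of *Snx31* (ENSMUSG00000013611), and the LiCl libraries held 6, 2 and 5. The LiCl libraries were near the detection limit, and LiCl replicate 2 was below a floor of 3 counts. The level fell from 0.960 ± 0.321 to 0.147 ± 0.0661 CPM, with a log2 fold change of -2.65 ± 0.43 (edgeR adjusted p = 0.0011). This is a 6.28-fold lower level, with a wide 95% interval of 3.20 to 12.3. For *Psca* (ENSMUSG00000022598), the controls held 3, 26 and 1 counts and each LiCl library held 2. Control replicate 2 held 72.2% of all *Psca* counts, and the other controls did not stand apart from the LiCl libraries. *Psca* did not pass the filter of the test. In an edgeR fit without a filter, it had a log2 fold change of -2.16 (adjusted p = 0.038), which changed to 0.04 (adjusted p = 0.99) when control replicate 2 was left out, and DESeq2 gave -2.23 (adjusted p = 0.13). Apart from control replicate 2, no change of *Psca* was detectable at this depth.

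**Figure D2:**
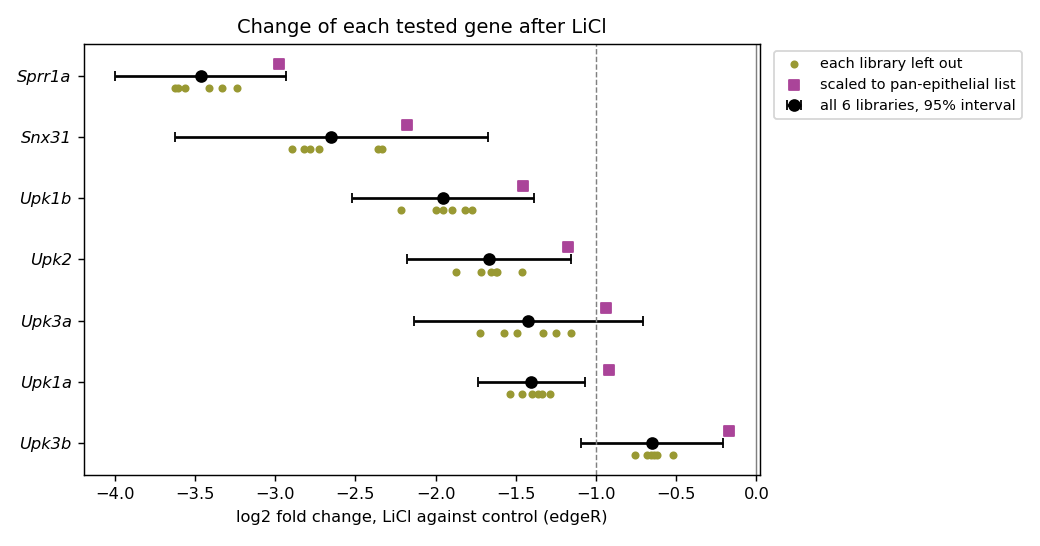
Log2 fold change of LiCl against control (edgeR) for the 7 tested genes, with the 95% interval from all 6 libraries (black), the values with each library left out in turn (small points) and the value after scaling to the pan-epithelial genes (squares) and a dashed line at the fold change required for a call. *Sprr1a* and *Snx31* lie farthest to the left at -3.46 and -2.65, and the square of *Upk3b* lies nearest to 0 at -0.17.

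The controls varied among themselves, and in 6 of the 7 measured genes the lowest control was replicate 3, whereas *Snx31* was lowest in control replicate 2. Relative to the mean of control replicates 1 and 2, control replicate 3 had 49.8% for *Upk1b*, 59.4% for *Upk2*, 67.8% for *Sprr1a*, 68.9% for *Upk3a*, 72.1% for *Upk1a*, 77.3% for *Upk3b* and 83.6% for *Snx31*. The median was 88.3% over 20 pan-epithelial genes, 98.4% over 15 genes of the ureteric mesenchyme (UM) and 99.7% over all tested genes. The part of epithelial content in this difference was not tested. Without control replicate 3, the log2 fold changes of all 7 measured genes were farther from 0. They were -1.54 for *Upk1a*, -2.21 for *Upk1b*, -1.87 for *Upk2*, -1.57 for *Upk3a*, -0.76 for *Upk3b*, -3.62 for *Sprr1a* and -2.72 for *Snx31*. The coefficient of variation of *Upk1b* was 34.8% in the controls, where counting error alone gives 4.77%, and 6.39% in the LiCl libraries, where counting error gives 9.55%. For *Upk2*, the corresponding values were 28.8% against 7.30% in the controls, and 6.80% against 13.2% after LiCl. Over the 7 measured genes, the coefficient was above that of counting error in 7 genes in the controls and in 3 genes after LiCl, among them *Upk3a* (32.7% against 22.7%) and *Sprr1a*. With 3 libraries per group, these coefficients are imprecise, and they were not tested.

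To compare levels between genes, the FPKM values, which are scaled to gene length, were used. In the controls, the order of the mean level was *Sprr1a* (14.1 FPKM), *Upk1a* (9.82), *Upk1b* (6.92), *Upk2* (5.69), *Upk3a* (1.61), *Upk3b* (0.678), *Psca* (0.375) and *Snx31* (0.323). Neighbours in this order overlapped in range, except that *Upk3a* was separate from both *Upk2* and *Upk3b*. After LiCl, the order was *Upk1a* (3.75 FPKM), *Upk2* (1.81), *Upk1b* (1.80), *Sprr1a* (1.30), *Upk3a* (0.601), *Upk3b* (0.436), *Psca* (0.0803) and *Snx31* (0.0503), and the only neighbours that overlapped were *Upk2* and *Upk1b*. *Sprr1a* moved from the first to the fourth place. The place of *Psca* in the controls rested on replicate 2 with 0.969 FPKM, against 0.119 FPKM in replicate 1 and 0.0376 FPKM in replicate 3, which were both below each control value of *Snx31*. Among all tested genes, the control level was at the 77.1st percentile for *Sprr1a*, the 68.5th for *Upk1a* and the 19.1st for *Upk3b*.

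Ratios between 2 genes of the same library do not depend on the scaling of libraries. Of the 21 pairs of the 7 genes, 13 had count ratios that did not overlap between the groups, and over all pairs of tested genes this share was 51.1%, so that the number of separate pairs is no result about these genes. With 3 samples against 3, an exact two-sided permutation test cannot give a p below 0.1, so no single pair could pass 0.05, and the smallest p after Benjamini-Hochberg adjustment over the 21 pairs was 0.162. For the pair *Upk1a* and *Upk2*, whose products assemble, the FPKM ratio was 1.78 ± 0.291 in the control and 2.08 ± 0.158 after LiCl (SD, n = 3 each), and the groups overlapped (exact permutation p = 0.2 on the log2 count ratio). For *Upk1b* and *Upk3a*, the other such pair, it was 4.34 ± 1.38 and 3.16 ± 0.740, also with overlap (exact permutation p = 0.3). Between the tetraspanins, the FPKM ratio of *Upk1a* to *Upk1b* was 1.39, 1.22 and 1.89 in the controls and 2.12, 2.07 and 2.05 after LiCl, so that *Upk1b* was lower relative to *Upk1a* in each LiCl library (exact permutation p = 0.1, the smallest possible). *Upk3b* separated from all 6 other genes. Its paralogue *Upk3a* was 2.35 ± 0.321 times as abundant per length in the control and 1.38 ± 0.470 times after LiCl. The FPKM ratio of *Sprr1a* to *Upk1a* was 1.43 ± 0.143 in the control and 0.351 ± 0.120 after LiCl. *Sprr1a* separated from all 5 uroplakins, but its ratio to *Snx31* overlapped between the groups (log2 change -0.84, exact permutation p = 0.3).

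The level of epithelial genes moved in the same comparison. The summed level of 20 pan-epithelial genes was 1761 to 2152 CPM in the controls and 1396 to 1457 CPM after LiCl. Of these genes, 4 were called lower and 0 higher, against 4.59% and 2.74% of all tested genes, and their median log2 fold change was -0.30. Single genes of this list differed in direction. *Cdh1*, the adherens junction cadherin, fell from 289 to 146 CPM (log2 fold change -0.99, edgeR adjusted p = 8.5e-06), whereas *Epcam*, a surface protein of epithelial cells, rose from 125 to 162 CPM (0.37, adjusted p = 0.00067). *Krt8* and *Krt18*, keratins of simple epithelia, fell by 0.59 and 0.65 on the log2 scale. The summed level of 15 UM genes was 7569 to 8240 CPM in the controls and 5906 to 6533 CPM after LiCl. The largest parts of this sum were *Col1a1* (2614 to 1984 CPM) and *Col3a1* (1867 to 1211 CPM). Of the 15 UM genes, 0 were called lower and 0 higher, and their median log2 fold change was -0.22. At an adjusted p under 0.05 (edgeR), 8 were lower, against 22.4% of all tested genes. By the same measure 3 were higher, *Vim* (0.30), *Tbx2* (0.27) and *Tbx3* (0.13), against 21.1%.

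Relative to the summed pan-epithelial counts of the same library, all 7 genes were lower in each LiCl library than in each control, as were 5.87% of all tested genes. For *Upk3b*, control replicate 3 had 1.149 and LiCl replicate 2 had 1.136 per 1000 pan-epithelial counts. This gap is smaller than its counting error of 11.7% in the controls and 15.0% after LiCl. The log2 change of the ratio to pan-epithelial counts was -3.00 for *Sprr1a*, -2.31 for *Snx31*, -1.41 for *Upk1b*, -1.15 for *Upk2*, -0.97 for *Upk3a*, -0.92 for *Upk1a* and -0.17 for *Upk3b*. When the edgeR fit was scaled to these genes, which moved the median log2 fold change of all genes by 0.47, 4 of the 7 genes were called lower (*Upk1b*, *Upk2*, *Sprr1a* and *Snx31*) and 0 higher, against 1.72% of all tested genes called lower and 9.09% called higher. In that fit, *Upk1a* had a log2 fold change of -0.92 (adjusted p = 1.2e-07), *Upk3a* of -0.94 (adjusted p = 0.0062) and *Upk3b* of -0.17 (adjusted p = 0.58). The adjusted p-values of the scaled fit are too small for the spread between libraries. The skeletal muscle gene *Myog*, with 76, 4 and 192 counts in the LiCl libraries, had 3.7e-32 there and 0.031 in the main fit (edgeR). The calls of the scaled fit share this limit, and its p-values cannot be compared with those of the main fit.

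Division by a single epithelial gene shifts all genes of a library by the same amount, and the references themselves differed in direction. Per count of *Cdh1*, the LiCl mean of *Upk1a* was 75.5% of the control mean, that of *Upk1b* 51.8%, that of *Upk2* 62.8% and that of *Sprr1a* 18.0%, each without overlap, and *Snx31* also lay lower in every LiCl library. *Upk3a* had 74.6% with overlap, and *Upk3b* had 127%, with every LiCl library above every control. Of all tested genes, 1.62% were lower without overlap per count of *Cdh1*. Per count of *Krt8*, the share was between 13.8% for *Sprr1a* and 56.9% for *Upk1a* without overlap, while *Upk3b* had 95.8% with overlap, and 3.83% of all tested genes were lower without overlap. Per count of *Epcam*, all 7 genes were lower without overlap, from 7.06% for *Sprr1a* to 49.1% for *Upk3b*, but so were 62.0% of all tested genes. *Upk1a*, *Upk1b*, *Upk2*, *Sprr1a* and *Snx31* were lower without overlap against each of these 3 references. The log2 fold change of *Upk3b*, -0.65, lay between those of *Cdh1* and *Krt8*, so that its sign was set by the choice of reference.

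**Figure D3:**
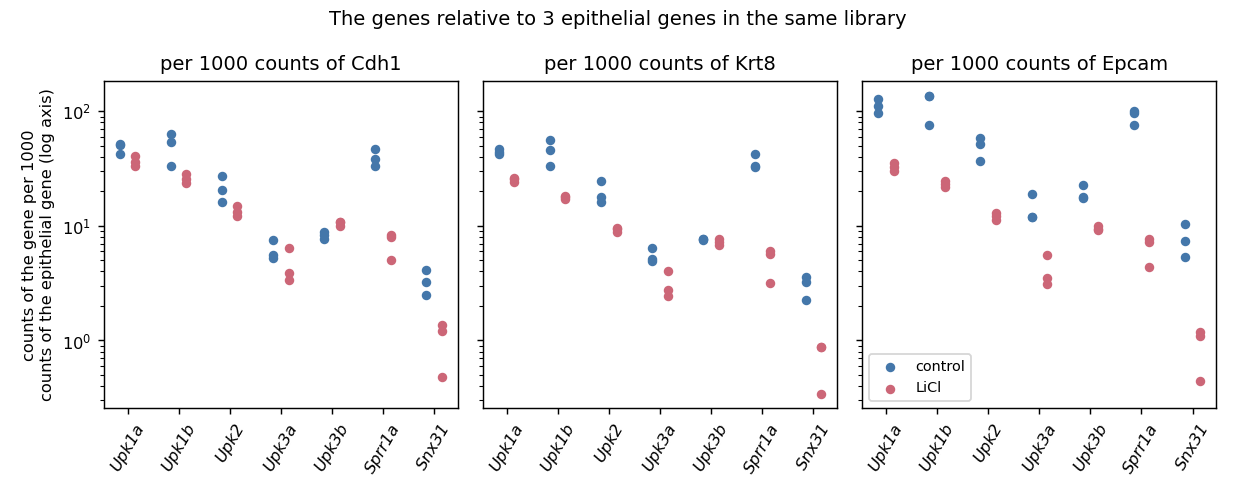
Counts of each of the 7 measured genes per 1000 counts of *Cdh1*, *Krt8* or *Epcam* in the same library (log axis), with 3 control (blue) and 3 LiCl (red) libraries per gene. *Upk3b* lies higher after LiCl per count of *Cdh1*, overlaps per count of *Krt8* and lies lower per count of *Epcam*, while *Sprr1a* is at 7.06% to 18.0% of the control in all 3 panels.

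Other genes of S cells and of the urothelial lumen formed a list of 20 tested genes, 6 of which are also in the pan-epithelial list. Of these 20, 6 were called lower and 0 higher, against 4.59% and 2.74% of all tested genes. At an adjusted p under 0.05, 12 were lower and 1, *Gdpd3* (0.55), was higher, against 22.4% and 21.1%. *Cldn3* (-0.20), *Cldn7* (-0.19), *Tjp3* (-0.14), *Plaur* (-0.23) and *Sult1a1* (0.08) were among those that did not pass. The median log2 fold change was -0.62. *Fxyd3*, a regulator of the sodium pump, fell from 2.38 to 0.262 CPM (log2 fold change -3.16, edgeR adjusted p = 0.0015). *Aqp3*, a water and glycerol channel, fell from 3.97 to 0.442 CPM (-3.14, adjusted p = 2e-05), and *Krt7*, a keratin of the urothelium, from 128 to 41.5 CPM (-1.63, adjusted p = 1e-06). The S-cell markers *S100a1* and *Krt20* had log2 fold changes of -0.79 (adjusted p = 0.0023) and -0.81 (adjusted p = 0.13), and *Krt20* was below 1 CPM in both groups. *Fxyd3* and *Aqp3* thus had log2 fold changes between those of *Sprr1a* and *Snx31*, while *S100a1* was nearer to *Upk3b*.

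Transcription factors of the urothelium were lower in part. Of 18 tested, 4 were called lower and 0 higher, against 4.59% and 2.74% of all tested genes. Their median log2 fold change was -0.28. *Foxa1*, a pioneer factor of endodermal and urothelial epithelia, fell from 56.7 to 16.8 CPM (log2 fold change -1.76, edgeR adjusted p = 2.9e-06). *Pparg*, a nuclear receptor that acts in S-cell differentiation, fell from 15.4 to 5.73 CPM (-1.43, adjusted p = 2.7e-05). *Foxq1* and *Ehf* were the other called genes, with -3.24 and -1.31. *Grhl3*, a grainyhead-like factor of S cells, fell by 0.88 on the log2 scale, while *Elf3* had -0.03 (adjusted p = 0.85) and *Klf4* rose by 0.65 (adjusted p = 0.0048).

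Of 14 tested genes of the machinery that carries uroplakins to the apical membrane, 1 was called lower and 0 higher, near the shares of 4.59% and 2.74% over all tested genes, and the median log2 fold change was -0.09. The called gene was *Rab27b*, which encodes a GTPase of the uroplakin-delivering vesicles and fell from 10.4 to 4.14 CPM (log2 fold change -1.32, edgeR adjusted p = 0.00082). *Mal*, a raft protein of apical transport, fell by 0.55 (adjusted p = 0.002). At an adjusted p under 0.05 (edgeR), 5 of the 14 were lower and 1, *Vps33a* (0.37), was higher, against 22.4% and 21.1% of all tested genes. The lower genes were *Rab27b*, *Mal*, *Myo5b* (-0.76), *Sytl2* (-0.56) and *Rab11a* (-0.34). The sorting nexins related to *Snx31*, *Snx17* and *Snx27*, had 0.02 and 0.10 (adjusted p = 0.8 and 0.16). Within the families of the other members, the 26 tested tetraspanins other than *Upk1a* and *Upk1b* had a median of 0.04, with 2 called lower, *Tspan8* (-1.41) and *Cd53* (-1.21), and 0 called higher. Of 13 tested LY6 family genes other than *Psca*, 2 were called lower, *Lypd2* (-1.98) and *Gpihbp1* (-1.67), and 0 higher.

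**Figure D4:**
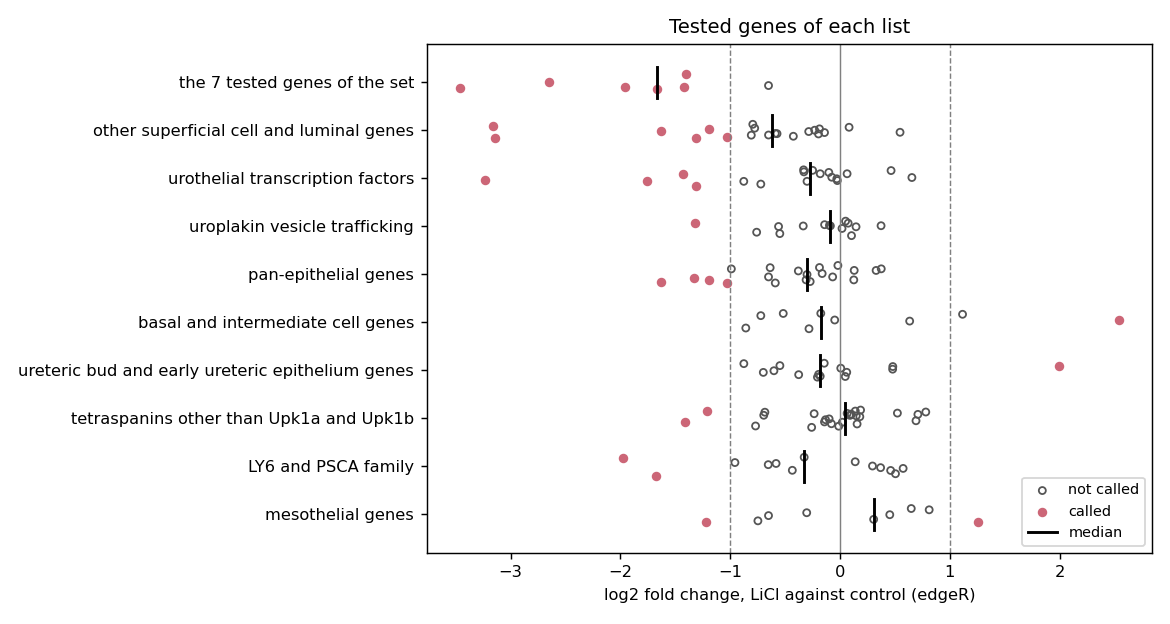
Log2 fold change of LiCl against control (edgeR) of every tested gene in the 7 measured genes and in 9 lists, with called genes filled, other genes open, the median of each list as a vertical bar and dashed lines at -1 and 1. The median lies at -1.67 for the 7 genes, -0.62 for other superficial genes and 0.04 for other tetraspanins.

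Markers of other cell types in or near the ureter were examined beside the set. Over all tested genes, 4.59% were called lower and 2.74% higher. Of 9 tested genes of B and I cells, 0 were called lower and 1 higher, *Cd44* (log2 fold change 2.54). At an adjusted p under 0.05 (edgeR), 4 of them were lower and 1 was higher, against 22.4% and 21.1% of all tested genes. The lower genes were *Krt15* (-0.86), *Trp63*, *Itgb4* (-0.52) and *Itga6* (-0.28). *Krt5* had 1.27 CPM in the control and 1.96 CPM after LiCl (0.63, edgeR adjusted p = 0.19), and *Trp63* fell by 0.72 (adjusted p = 0.013). Thus the B-cell keratin *Krt5* and the S-cell keratin *Krt20* were both low in these ureters. Mesothelial genes, of interest because of *Upk3b*, formed a list that includes *Upk3b* itself. Its summed level was 60.9 to 65.4 CPM in the controls and 51.0 to 58.5 CPM after LiCl. Of 9 tested, 1 was called lower, *Msln* (-1.22), and 1 higher, *Bnc1* (1.26). At an adjusted p under 0.05 (edgeR), 3 were lower, *Msln*, *Upk3b* and *Efemp1* (-0.75). By the same measure 3 were higher, *Bnc1*, *Rspo1* (0.81) and *Wt1* (0.65). *Lrrn4*, another mesothelial gene, had 1.08 CPM in the control and 1.34 CPM after LiCl (0.31, adjusted p = 0.35). The part of mesothelial cells in the level of *Upk3b* was not tested.

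Genes of the renal collecting duct were lower in part. Of 7 tested, 4 were called lower and 0 higher, against 4.59% and 2.74% of all tested genes. The median log2 fold change was -1.06. *Avpr2* (0.53), *Slc4a1* (-0.26) and *Atp6v0d2* (-0.06) did not pass an adjusted p of 0.05 (edgeR). The summed level of the list was 85.4 to 91.9 CPM in the controls and 24.6 to 30.9 CPM after LiCl, which is 31.2% of the control. Most of this sum came from *Scnn1b* and *Scnn1g*. The summed level of the 20 other superficial genes after LiCl was 58.6% of the control. *Scnn1b* and *Scnn1g*, subunits of the epithelial sodium channel, fell from 40.7 to 7.34 CPM (log2 fold change -2.47, edgeR adjusted p = 3.3e-07) and from 34.2 to 9.90 CPM (-1.79, adjusted p = 1.3e-06). *Aqp4*, a water channel, fell from 2.09 to 0.252 CPM (-3.03, adjusted p = 2.9e-05). *Aqp2*, the water channel of principal cells, and *Foxi1*, a factor of intercalated cells, had at most 4 counts in any library and were not tested. The part of collecting duct tissue in the results on the 8 genes was not tested. Among genes of the ureteric bud and early UE, 0 of 15 were called lower and 1 higher, *Calb1* (1.99).

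Genes with a pattern most like that of each member were sought among the 15442 tested genes whose mean reached 1 CPM, by Pearson's r of log2 CPM over the 6 libraries. These libraries form 2 groups that differ in 7 members, so that r is high wherever a gene differs in the same direction. *Upk1a* was closest to *Wnt7b*, a WNT ligand of the UE (r = 0.9996), although *Wnt7b* fell by only 0.60 on the log2 scale. *Upk1b* and *Upk2* shared *Mfsd6* among their 3 closest genes (r = 0.997 for both). *Snx31* was closest to *Gria1* (r = 0.9998) and *Pi15* (r = 0.9995), and *Sprr1a* to *Fam131b* (r = 0.998). As these genes were picked from 15442 over only 6 libraries, a high r can arise from the selection itself. The LiCl libraries held only 6, 2 and 5 counts of *Snx31*. Among the members themselves, deviations from the group means correlated most between *Upk1b* and *Upk2* (r = 0.954) and between *Upk1a* and *Upk1b* (r = 0.933). The correlation was negative between *Sprr1a* and both *Upk3a* (r = -0.32) and *Snx31* (r = -0.28), all over 6 libraries. The part of control replicate 3, the lowest control in 6 of the 7 measured genes, in these values was not tested.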

How the data were processed

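RNA-Seq of 3 LiCl and 3 control samples (poly-A selected, stranded, paired-end) was analysed. The authors deposited raw counts per gene without normalization, and FPKM values. The submitters' processing notes list fastp 0.23, STAR 2.7, featureCounts 2.0 and DESeq2 1.40, whereas the paper's methods give HISAT2 as aligner to GRCm39, so that the aligner differs between the sources. The annotation release and strand setting of the counting are not given in the sources used here. Counts divided by the deposited FPKM gave whole gene lengths (tolerance 0.05) in 100% of 13480 genes with DESeq2 size factors. Symbols came from a GENCODE vM21 table of GRCm38 (52073 of 56748 identifiers), so that no gene coordinates are given beside the RefSeq windows.

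The deposited counts entered edgeR 4.0.16 (R 4.3.3) after the filter of filterByExpr and TMM scaling, and its quasi-likelihood test was adjusted by the Benjamini-Hochberg method. CPM were computed with TMM factors. Alternatives used DESeq2 1.42.0 and limma 3.58.1 on log2(FPKM + 1) and log2(FPKM + 0.1). On simulated counts with 200 genes changed 4-fold among 17857, edgeR recovered 100% with 1 false call. The simulation gave every gene the same dispersion (0.006649) and changed only genes above 1 CPM. It therefore cannot show the recovery of genes that vary more or lie lower, such as *Upk1b* or *Snx31*. Correlations of deviations between libraries of the same replicate number were 0.03, -0.09 and 0.10. They cannot settle whether the samples were paired by replicate number. The main fit was unpaired, and a fit with the replicate number as a block was an alternative. Same-group libraries differed by more than counting noise. The members and lists were chosen with earlier results of these data known. Named genes were the 8 members, up to 3 called genes with the largest and 3 with the smallest change per list, a fixed set of epithelial, S-cell, transcription factor and mesothelial markers, *Axin2*, and the 3 genes most like each member. *Elf3*, *Klf4*, *Snx17* and *Snx27*, the ratios between genes and the comparison of control replicate 3 were added after values were seen. So were *Gdpd3*, *Cldn3*, *Cldn7*, *Tjp3*, *Plaur*, *Sult1a1*, *Avpr2*, *Slc4a1*, *Atp6v0d2*, *Efemp1*, *Rspo1* and *Wt1*. The same holds for *Ehf*, *Aqp2*, *Foxi1*, *Krt15*, *Itgb4*, *Itga6*, *Vps33a*, *Myo5b*, *Sytl2*, *Rab11a*, *Col1a1*, *Col3a1*, *Vim*, *Tbx2* and *Tbx3*.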

Additional observations from a re-analysis of the deposited data

How the results depend on the processing

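All 7 tested genes kept a negative log2 fold change under every alternative in which they were tested. The number called lower was 6 with RLE size factors, library size only, DESeq2, the replicate block, a filter of 10 counts in 3 samples, and each library left out in turn (lowest 6, highest 6). It was 7 without a filter, where *Psca* was added, and 7 without a fold change minimum, where *Upk3b* was added. It was 5 with 10 counts in every sample and with limma on log2(FPKM + 0.1), both of which did not test *Snx31*, and 4 with scaling to pan-epithelial genes and with limma on log2(FPKM + 1), with and without its filter. The unfiltered limma fit tested *Snx31*, which had -0.33 (adjusted p = 0.014) and was no longer called, and *Upk3a* had -0.70 (adjusted p = 0.031). Both genes had a mean under 2 FPKM, and adding 1 understates the change of such genes. With glmTreat, which tests against the fold change of the call, it was 3 (*Upk1b*, *Sprr1a* and *Snx31*), and adjusted p was 0.12 for *Upk1a*, 0.085 for *Upk2* and 0.84 for *Upk3a*.

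With each library left out, log2 fold changes ranged from -1.54 to -1.29 for *Upk1a*, -2.21 to -1.78 for *Upk1b*, -1.87 to -1.46 for *Upk2*, -1.72 to -1.15 for *Upk3a*, -0.76 to -0.52 for *Upk3b*, -3.62 to -3.24 for *Sprr1a* and -2.89 to -2.34 for *Snx31*.

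Over all genes, 498 were called higher and 835 lower. These counts were 1654 and 313 when scaled to pan-epithelial genes, 177 and 141 with limma on log2(FPKM + 1), 171 and 139 with the same without filter, 3844 and 4071 without a fold change minimum, and 172 and 162 with glmTreat. Limma on log2(FPKM + 0.1) called 430 lower. With the replicate block, 478 were higher and 801 lower, and it changed no call of a member. *Myog*, a skeletal muscle gene, reversed to -0.85 (edgeR adjusted p = 0.72) without LiCl replicates 1 and 3, an alternative chosen after seeing the data. It leaves 1 LiCl library, so that the controls alone give the spread, and neither this value nor the 6 members it called lower are replicated on the LiCl side. The cause of these shifts was not tested. Depth limits *Psca*, *Snx31* and *Krt20*, and p-values cover the spread between 3 libraries per group only.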
